A study of Rattus norvegicus with 43 samples.

Results

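The renal cortex of Dahl salt-sensitive rats, genotype label SS WT, was compared between a diet with 4% NaCl (high salt) and a diet with 0.4% NaCl (normal salt), with tissue taken at 2pm. Male animals received either diet for 3 weeks, and 2pm falls in their inactive phase. All libraries whose titles give the SS strain and 2pm were taken, which gave 5 on high salt and 6 on normal salt, or 11 of the 43 libraries of the series. Messenger RNA was selected with poly-T beads and sequenced, and the authors deposited a level for each gene in FPKM, fragments set relative to gene length and library size. Diet cannot be told apart from the deposited table, since each diet has a table of its own, nor from the library names, which begin with OK on normal salt and AZ on high salt. The difference between diets therefore carries no p-value here. A gene is counted where its 5 high-salt values all lay above, or all below, its 6 normal-salt values, and such a gene is called apart. The labels do not say that each library came from a separate animal, so SDs and standard errors (SE) describe the spread between these libraries. A pair of other comparisons was set beside this one: SS at 2am, in the active phase, and the genotype label SSper1-/- (written Per1KO) at 2pm, each with the same diets in 5 and 6 libraries. Per1 itself did not separate the genotype labels: at 2pm it stood at 14.96 ± 4.56 FPKM (SD, n = 5) on high salt and 15.5 ± 4.51 (n = 6) on normal salt under the Per1KO label, and at 12.4 ± 4.60 and 17.3 ± 5.08 under SS. The labels do not name the allele or the part of the gene removed, so this level does not check the label.

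SS rats are an inbred model in which dietary salt raises blood pressure and damages the kidney, with loss of proximal tubule function, immune cell entry and scarring as known features. The angiotensin system conserves sodium and is normally held back by a high salt intake. The kidney also runs a circadian clock: BMAL1, encoded by Arntl, pairs with CLOCK or NPAS2 on E-boxes (CACGTG) and drives the Per and Cry repressors, the Nr1d1 and Nr1d2 repressors and the output factors Dbp, Tef and Hlf.

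The libraries of a diet were not alike. High-salt replicates 1 and 2 carry library names AZ007 and AZ008, and replicates 3 to 5 carry AZ59 to AZ61. They are called the earlier-numbered and later-numbered series here, from the names alone. High-salt replicate 4 had the lowest likeness to its group (median Pearson r of log2 values across genes 0.933), and summed proximal tubule markers stood at 4147 FPKM there against 6053 to 12795 in the other high-salt libraries. Normal-salt replicate 5 was lowest in its own group, with 6248 against up to 14073. Inner medulla markers summed to 66.9 FPKM in high-salt replicate 4 and to 13.5 to 24.9 in all other libraries. Podocyte markers ranged from 32.4 to 194 on high salt and from 56.8 to 235 on normal salt, and adrenal cortex markers stayed at or below 2.14. Depth, recovered from the deposited values, was 16429253 to 24110018 fragments on high salt and 23970595 to 31194094 on normal salt. In bulk tissue, fewer cells of a type and less RNA per cell cannot be told apart.

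Of the 12949 genes that reached 1 FPKM in 5 or more of the 11 libraries, 531 were apart with high salt above (4.1% of genes tested) and 350 with high salt below (2.7%). Most of these differences were small: the median size was 0.43 on the log2(FPKM + 1) scale, and 15 genes above and 26 below differed by 2-fold or more. The median over all genes tested was 0.01. High salt was above for 60.3% of the genes apart, but for 13.3% (106 above, 691 below) when each library was scaled to the same FPKM total, which moved that median to -0.05 and shared 412 genes with the 881. Genes above included Stc1, Angptl4, Pdk4, Pappa, Gsta2 and the mitochondrially encoded Mt-atp8 and Mt-nd5. Genes below included Id3, the interferon-inducible Ifi27l2b and Bst2, the complement gene C1qa, the sodium pump subunit gene Fxyd1 and the complex I gene Ndufa13. Without high-salt replicate 5 or normal-salt replicate 5, fewer libraries had to be apart and 1404 and 1378 genes were, in place of 881. All differences that follow are high minus normal salt on the log2(FPKM + 1) scale, which understates the change of genes near 1 FPKM. Counts of genes apart in the lists that follow are to be read beside the 4.1% above and 2.7% below of all genes tested.

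**Figure D1:**
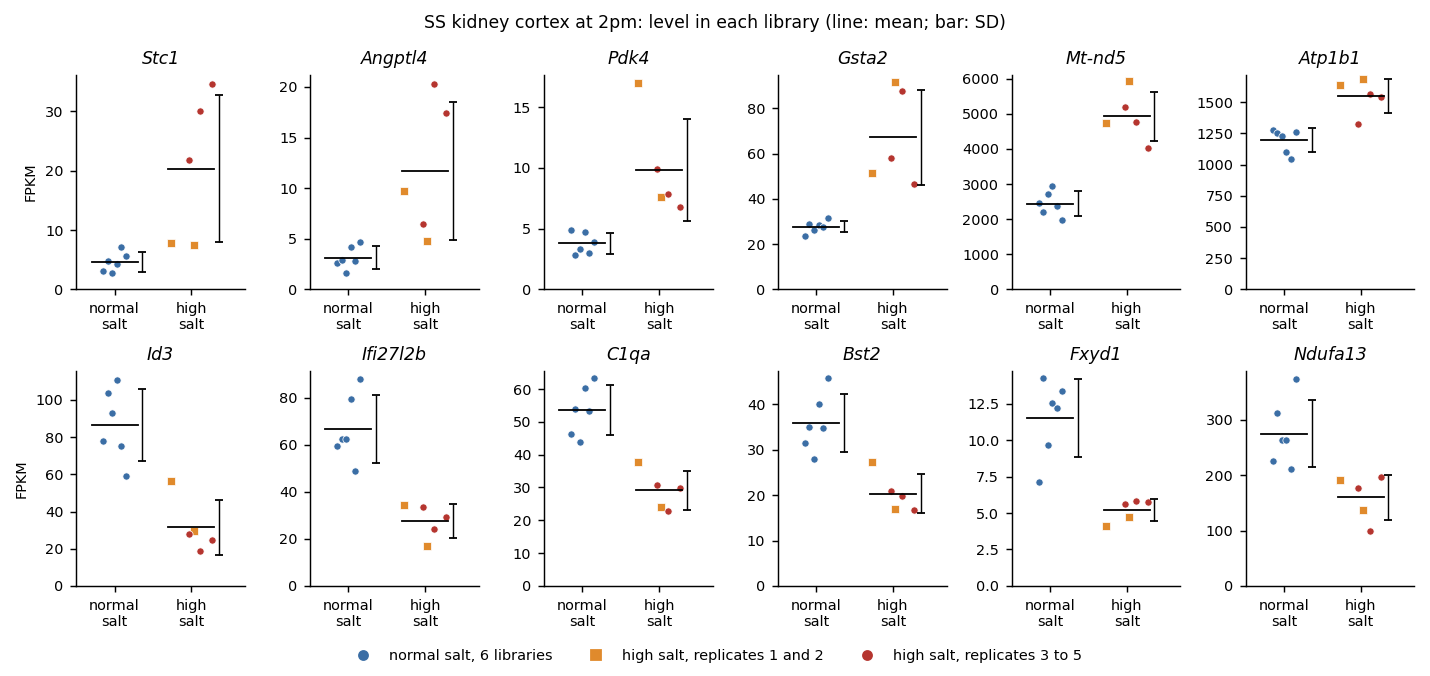
FPKM in each SS library at 2pm for 12 genes whose diets did not overlap, 6 above on high salt (upper panels) and 6 below (lower panels), with the mean as a line and the SD as a bar. High-salt replicates 1 and 2 (squares) and 3 to 5 (red circles) both lie beyond the normal-salt circles, by little for Angptl4 and Id3, and Stc1 reaches 21.8 to 34.6 FPKM in replicates 3 to 5 against 7.55 and 7.84 in replicates 1 and 2.

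Stc1 encodes stanniocalcin, a secreted glycoprotein first known as a calcium regulator of fish. Its level was 7.84, 7.55, 21.8, 29.9 and 34.6 FPKM in high-salt replicates 1 to 5, and on normal salt the lowest, median and highest were 2.82, 4.50 and 7.10. All high-salt libraries lay above, the earlier-numbered series by little and the later-numbered by far. The difference was 1.74 (SE 0.39, n = 5 and 6), made of 0.68 in the earlier-numbered and 2.44 in the later-numbered series. The diets overlapped for Stc1 when libraries were scaled to equal totals, or when the trend of each library with gene length was removed. Pappa, a protease that releases insulin-like growth factor from its binding proteins, stood at 2.08, 2.89, 5.13, 5.54 and 4.15 FPKM on high salt and at 0.443 to 1.71 (median 1.18) on normal salt. It differed by 1.20 (SE 0.23) and was high in all 5 libraries. Hnf4g, a nuclear receptor of tubule and gut epithelium, stood at 16.5 to 21.2 FPKM on high salt and 4.67 to 15.1 on normal salt, a difference of 0.97 (SE 0.25).

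A pair of genes that respond to fatty acids through PPAR receptors was among the 12 largest rises. Angptl4, an inhibitor of lipoprotein lipase, was measured at 9.68, 4.79, 6.46, 20.3 and 17.4 FPKM on high salt against 1.60, 2.87 and 4.65 (lowest, median, highest) on normal salt. Pdk4, the kinase that shuts off pyruvate dehydrogenase, was measured at 17.0, 7.58, 9.95, 7.82 and 6.77 FPKM against 2.84, 3.63 and 4.92. Neither gene overlapped between diets, and high-salt replicate 2 was the lowest for Angptl4 and replicate 1 by far the highest for Pdk4. The differences were 1.49 (SE 0.33) and 1.12 (SE 0.21). At 2am in SS they were 0.05 for Angptl4 and -0.08 for Pdk4, but the test of the difference between times did not pass for either (limma, two-sided, adjusted p 0.218 and 0.225). Pdk4 and Angptl4 were the 2 of 35 tested genes of fatty acid oxidation and PPAR targets that were apart, and the list's median was 0.08. That count is near the 4.1% of all genes that were above. Pdk4 was also the 1 gene apart of 19 corticosteroid receptors and targets and of 27 genes of pyruvate oxidation and the tricarboxylic acid cycle. Gpam, which starts glycerolipid synthesis, overlapped only through normal-salt replicate 5 (6.67 to 10.4 against 2.97 to 7.08 FPKM, difference 0.76, SE 0.19). No gene of sterol synthesis (23 tested), lipogenesis (17), glycolysis (21), gluconeogenesis (15) or amino acid metabolism (32) was apart.

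Genes of glutathione and thioredoxin defence gave 2 above and 1 below of 29 tested, with a list median of -0.05. These counts are near the 4.1% above and 2.7% below of all genes. Gsta2, an alpha-class glutathione transferase, stood at 51.4, 91.5, 58.0, 87.8 and 46.8 FPKM on high salt and at 23.7, 28.1 and 31.4 (lowest, median, highest) on normal salt. The lowest high-salt library lay well above the highest normal-salt one, and the difference was 1.20 (SE 0.17), with 1.28 and 1.14 in the earlier-numbered and later-numbered series. Reads of Gsta2 may be shared with close copies of its family. Txnrd1, which reduces thioredoxin, was higher by 0.26 (SE 0.08), at 57.5 to 67.6 against 46.8 to 56.4 FPKM. Keap1, the adaptor that sends the stress factor NRF2 for degradation, was lower by -0.30 (SE 0.09), at 13.3 to 17.6 against 18.1 to 20.7 FPKM. Cul3, the scaffold of the ubiquitin ligase that works with KEAP1 and with the KLHL3 adaptor of distal tubule sodium transport, was higher by 0.45 (SE 0.08), at 26.8 to 32.3 against 19.1 to 24.0 FPKM. Cul3 was the 1 of 16 tested genes of distal convoluted tubule cotransport that was apart, and Slc12a3, the thiazide-sensitive cotransporter, was not: it ran from 9.99 to 113 FPKM on high salt and from 16.3 to 183 on normal salt.

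Transcripts of the mitochondrial genome were the list with the most genes apart. Of 11 mitochondrial protein-coding transcripts tested, 6 were apart and above, against 4.1% of all genes, and none below, with a median of 0.53. Mt-nd5, a proton-pumping subunit of complex I, stood at 4732, 5923, 5198, 4758 and 4036 FPKM on high salt and at 1976, 2415 and 2938 (lowest, median, highest) on normal salt. The difference was 1.01 (SE 0.16), and every high-salt library lay far above the normal-salt range. Mt-atp8, a subunit of ATP synthase, stood at 241, 262, 295, 229.8 and 268 FPKM against 92.9, 119.9 and 132, a difference of 1.13 (SE 0.11). Mt-nd4l, Mt-nd6, Mt-nd1 and Mt-nd2 were the other 4 apart, with differences of 0.85, 0.60, 0.53 and 0.50. Mt-atp8 overlaps Mt-atp6, Mt-nd4l overlaps Mt-nd4, and Mt-nd6 lies beside Mt-nd5 on the other strand, so their reads may be shared, and Mt-atp6, Mt-nd4 and Mt-co1 themselves overlapped between diets. Mitochondrial transcripts together took 26.9% to 31.7% of summed FPKM on high salt and 20.2% to 27.2% on normal salt.

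Of 32 nuclear subunits of complex I tested, 4 were apart and below, none above, with a median of -0.16, and of 38 subunits of complexes II to V, 1 was below, with a median of -0.18. The second count is near the 2.7% of all genes that were below. Ndufa13, also known as GRIM-19, stood at 191, 137, 177, 99.3 and 196 FPKM on high salt against 211, 264 and 375 (lowest, median, highest) on normal salt, a difference of -0.79 (SE 0.20). Cox8a, a small subunit of cytochrome oxidase, stood at 852, 619, 839.5, 556 and 835 FPKM against 1082, 1259 and 1737, a difference of -0.82 (SE 0.17). Ndufb6, Ndufa8 and Ndufb8 were lower by -0.55, -0.52 and -0.41. By high-salt series, both set against the same 6 normal-salt libraries, mitochondrial transcripts had medians of 0.56 and 0.51, and nuclear complex I subunits -0.16 and -0.15. These nuclear genes are short, and over all genes the difference was more positive in longer genes. With that trend removed the complex I median was -0.06, that of complexes II to V was -0.08, and Ndufb6 overlapped between diets. Ndufa13, Ndufa8, Ndufb8 and Cox8a were still apart, at -0.63, -0.41, -0.28 and -0.67. Scaling moved the counts below the other way. With equal FPKM totals they were 11 of 32 and 9 of 38, beside 691 of all 12949 genes. With equal totals outside the mitochondrial genome they were 6 and 3, beside 324 of all genes.

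Within the sodium pump list, 1 of 8 tested genes was above and 1 below, against 4.1% and 2.7% of all genes. Atp1b1, the beta subunit that carries the pump to the basolateral membrane, stood at 1639, 1680.5, 1323, 1561 and 1543 FPKM on high salt against 1046, 1241 and 1279 (lowest, median, highest) on normal salt, a difference of 0.37 (SE 0.11). The gap between the highest normal-salt and the lowest high-salt library was narrow. Fxyd1, or phospholemman, a small regulator of the pump, stood at 4.13, 4.75, 5.61, 5.80 and 5.77 FPKM against 7.11, 12.4 and 14.2, a difference of -0.99 (SE 0.16). By high-salt series the values for Fxyd1 were -1.17 and -0.87. None of 10 genes of the epithelial sodium channel and its regulators and none of 14 genes of the thick ascending limb was apart. Scnn1g, the gamma subunit of the channel, was 15.7 to 24.0 FPKM on high salt and 10.3 to 12.1 in 5 normal-salt libraries, and normal-salt replicate 2 at 19.8 alone made the diets overlap (difference 0.56, SE 0.16). Slc12a1, Umod, Slc9a3, Scnn1a, Scnn1b, Hsd11b2, Nr3c2 and Sgk1 overlapped, with differences from -0.21 for Slc9a3 to 0.51 for Slc12a1.

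Atp6ap2, an accessory subunit of the vacuolar proton pump, was the 1 of 10 tested genes of the angiotensin system list that was apart, at 101 to 129 against 79.4 to 99.0 FPKM, a difference of 0.32 (SE 0.10). For Atp6ap2 the difference at 2pm was larger in SS than under the Per1KO label, by 0.46 (SE 0.10, limma, adjusted p 0.00163). Agt, angiotensinogen, ran from 6.78 to 99.6 FPKM on high salt and from 4.80 to 98.9 on normal salt, and Ace and Agtr1a overlapped as well (0.37 and -0.05). Of 21 tested genes of endothelin, nitric oxide and natriuretic signalling, Npr2, the receptor of C-type natriuretic peptide, was the 1 apart: 2.33, 2.39, 2.48, 2.13 and 2.10 FPKM on high salt against 3.13, 3.53 and 4.08 (lowest, median, highest) on normal salt. The diets did not come near each other, and the difference was -0.48 (SE 0.09). Under the Per1KO label Npr2 stood at 4.17 ± 0.29 on high salt (n = 5) and 3.23 ± 0.71 (n = 6) on normal salt, and the difference between the labels' diet differences was -0.78 (SE 0.14, limma, adjusted p 0.000329). Edn1, endothelin-1, overlapped in SS (0.19, SE 0.14).

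**Figure D2:**
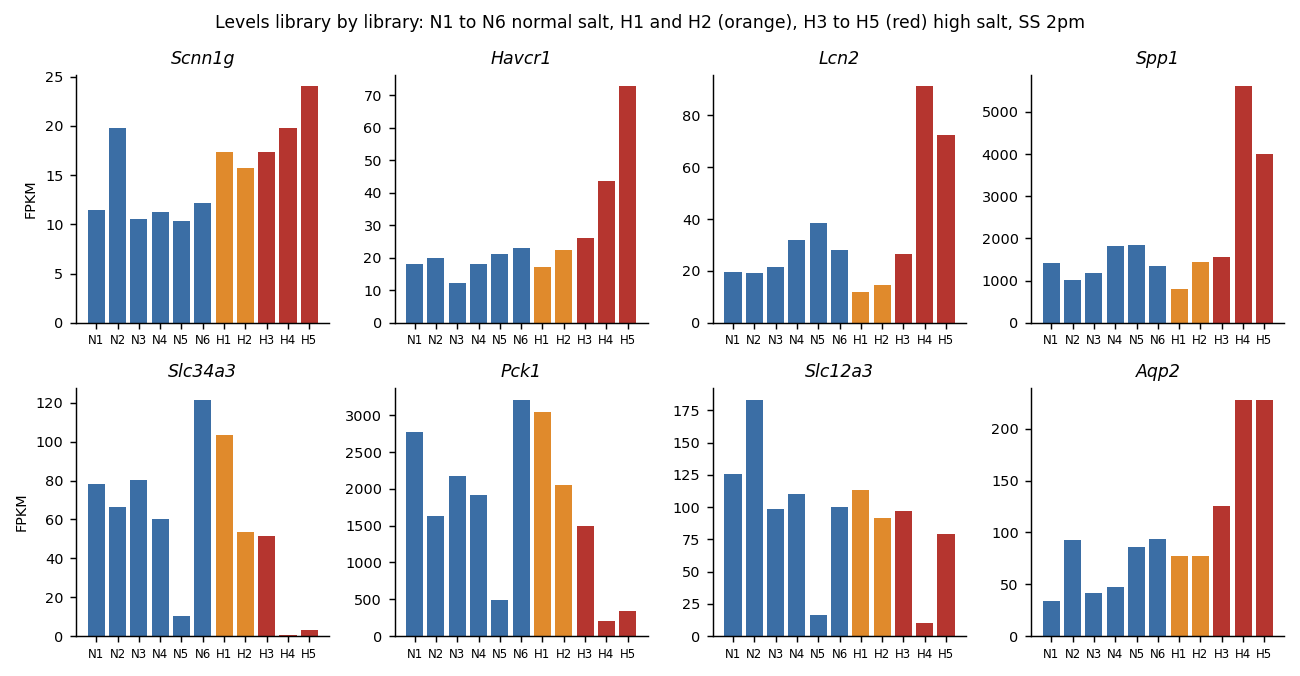
FPKM of 8 genes in each SS library at 2pm, as bars from 0, with normal-salt replicates in blue (N1 to N6), high-salt replicates 1 and 2 in orange and 3 to 5 in red. Normal-salt replicate 2 is the 1 library that brings Scnn1g into overlap, and Havcr1, Lcn2, Spp1 and Aqp2 peak in high-salt replicates 4 and 5, where Slc34a3 and Pck1 are lowest.

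Few immune genes were apart. The lists of macrophages and neutrophils, lymphocytes, MHC class II and complement had 1 gene below each, of 17, 10, 15 and 20 tested, and none above, against 2.7% below among all genes. Their medians were -0.31, -0.08, -0.41 and -0.10 at 2pm, and 0.07, 0.08, -0.03 and 0.10 in SS at 2am. Lists share members: C1qa is the gene below in both the macrophage and the complement list. Psmb9, below in the MHC class II list, is counted again among the interferon genes. Markers of macrophages, 8 genes with 7 tested and none at 0 in every library, summed to 105 to 127 FPKM on high salt and 133 to 200.2 on normal salt. That separation rested on the 3 C1q genes: the other 5 markers summed to 29.1 to 35.3 on high salt and 28.4 to 43.6 on normal salt, with overlap, and Mrc1 had its higher levels on high salt (1.60 to 2.75 against 1.10 to 1.87 FPKM). C1qa, a chain of the first complement component that macrophages make, stood at 37.8, 24.1, 30.8, 22.9 and 29.9 FPKM on high salt against 43.8, 53.7 and 63.5 (lowest, median, highest) on normal salt. It was the 1 of 17 tested genes of macrophages and neutrophils that was apart, at -0.87 (SE 0.14). Its partner C1qb overlapped by the width of normal-salt replicate 3 (19.9 to 25.9 against 20.9 to 37.6 FPKM, -0.32, SE 0.13), and Cd68 overlapped more (-0.23, SE 0.11). Cd4, a co-receptor of T cells that rat macrophages carry too, was lower by -0.41 (SE 0.12), at 14.0 to 16.5 against 16.6 to 26.7 FPKM, with lymphocyte markers overlapping at 3.19 to 7.08 and 3.42 to 7.07 FPKM in sum. All 15 tested genes of MHC class II and antigen presentation had negative differences, from -0.70 for RT1-DMb to -0.19 for B2m, but only Psmb9 was apart. No chemokine (18 tested) was apart, and Ccl19, with the largest difference of them, overlapped (3.39 to 11.7 against 7.78 to 17.7 FPKM, -0.92, SE 0.26).

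Interferon-responsive genes gave 3 below and none above of 30 tested, against 2.7% below among all genes, with a median of -0.16. Bst2, or tetherin, which holds budding virus at the cell surface, stood at 27.2, 16.9, 21.0, 19.8 and 16.8 FPKM on high salt against 28.0, 34.9 and 45.9 (lowest, median, highest) on normal salt, a difference of -0.79 (SE 0.15). Ifi27, a mitochondrial protein induced by type I interferon, stood at 135, 103, 127, 132 and 146 FPKM against 161, 194 and 258, a difference of -0.63 (SE 0.13). Psmb9, an immunoproteasome subunit, was lower by -0.51 (SE 0.12). With the gene length trend removed Bst2 and Psmb9 overlapped between diets, at -0.68 and -0.45. Outside the list, Ifi27l2b of the same family as Ifi27 stood at 17.0 to 34.3 against 48.7 to 87.9 FPKM (-1.26, SE 0.19), and Irf3, the factor that switches on interferon genes, at 29.2 to 36.2 against 52.4 to 108 FPKM (-0.99, SE 0.16). Reads of the Ifi27 family may be shared. Psmb9, Ifi27l2b and Irf3 had diet differences that were more negative in SS than under the Per1KO label at 2pm, by -0.65 (adjusted p 0.00441), -0.86 (0.0153) and -0.78 (0.00598, all limma), while Bst2 and Ifi27 did not pass (0.0808 and 0.0754).

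The promoters of Bst2 and Ifi27 are shown because both genes lay below in every high-salt library and both windows hold the letters of an interferon-stimulated element, searched on both strands as TTTC, then any 2 bases, then TTTC. The windows run from 250 bases before to 50 after the RefSeq start in GRCr8, Bst2 at chr16:18254918-18255217 on the minus strand and Ifi27 at chr6:128355062-128355361 on the plus strand, 5′ to 3′, with the matches in capitals.
Bst2: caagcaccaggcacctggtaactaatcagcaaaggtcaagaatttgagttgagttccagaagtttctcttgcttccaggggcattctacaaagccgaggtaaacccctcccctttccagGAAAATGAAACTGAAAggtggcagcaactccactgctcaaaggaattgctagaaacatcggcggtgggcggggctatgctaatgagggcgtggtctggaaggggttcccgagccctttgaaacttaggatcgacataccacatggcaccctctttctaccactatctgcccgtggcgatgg
Ifi27: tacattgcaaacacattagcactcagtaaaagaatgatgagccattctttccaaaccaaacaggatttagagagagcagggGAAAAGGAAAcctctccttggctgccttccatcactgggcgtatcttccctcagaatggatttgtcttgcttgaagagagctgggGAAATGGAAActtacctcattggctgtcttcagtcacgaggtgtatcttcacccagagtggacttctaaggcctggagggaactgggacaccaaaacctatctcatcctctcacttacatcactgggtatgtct
The 2 matches of Bst2 begin 131 and 125 bases before the start and overlap each other, and those of Ifi27 begin 169 and 84 bases before it. Of 33469 rat promoters of this length, 3.92% hold the element, and 15 of the 23 interferon list members with a RefSeq promoter hold it, most of which were not apart. A match describes letters only.

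Injury and matrix genes overlapped between diets. None of 19 tested genes of tubular injury, of 28 of extracellular matrix or of 19 of TGF-beta signalling was apart. Havcr1, or KIM-1, the phagocytic receptor of injured proximal tubule, stood at 17.3, 22.3, 26.1, 43.7 and 72.8 FPKM on high salt against 12.1, 19.1 and 22.9 (lowest, median, highest) on normal salt. High-salt replicates 3 to 5 lay above the normal-salt range and replicates 1 and 2 within it. Lcn2, an iron-binding protein of injured tubules, ran from 12.1 to 91.2 FPKM and Spp1, osteopontin, from 800.2 to 5607, with their highest values in replicates 4 and 5. The differences were 0.76 for Havcr1, 0.31 for Lcn2 and 0.57 for Spp1. Without high-salt replicate 4 and normal-salt replicate 5 they were 0.68, 0.05 and 0.30, and the diets overlapped for each gene in both settings. The injury list had a median of -0.37 in the earlier-numbered and 0.53 in the later-numbered series, and of -0.01 without high-salt replicate 4 and normal-salt replicate 5. In the same libraries proximal tubule transport genes ran the other way, with medians of 0.38 and -0.23: Slc34a3, a phosphate transporter, was 103 and 53.7 FPKM in replicates 1 and 2 and 51.5, 0.367 and 2.89 in replicates 3 to 5. Proximal tubule markers summed to 4147 and 6053 FPKM in replicates 4 and 5, against 9337 in replicate 3 and 10744 in replicate 2. For Slc34a3 too, replicate 3 lay near replicate 2, and the low values were those of replicates 4 and 5. Col1a1 and Col3a1, the main fibrillar collagens, overlapped (0.07 and -0.19, SE 0.17 each).

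The 2 high-salt series differed from each other in the core clock. None of its 17 tested genes was apart, and its median was 0.25 in the earlier-numbered and -0.73 in the later-numbered series. With replicates 1 and 2 alone, 8 lay above all normal-salt libraries and 0 below, beside 2191 and 1711 of all 12949 genes. With replicates 3 to 5 alone, 2 lay above and 9 below, beside 945 and 723. Hlf stood at 45.9 and 42.5 FPKM in replicates 1 and 2, against 12.7 to 30.9 on normal salt. In replicates 3 to 5 it was 8.81, 2.99 and 7.16. Clock overlapped through high-salt replicate 5 (9.01 to 13.9 against 5.64 to 9.47 FPKM). Arntl stood at 0.531 and 1.16 FPKM in high-salt replicates 1 and 2, within or near the normal-salt range of 0.799 to 2.94, and at 9.27, 12.5 and 9.94 in replicates 3 to 5. At 2am in SS it ran from 16.4 to 19.6 FPKM over both diets, so replicates 3 to 5 lay between the 2 times. Dbp, which binds D-boxes of output genes, stood at 196 and 137 FPKM in replicates 1 and 2 and at 33.6, 8.13 and 24.9 in replicates 3 to 5, against 121 to 266 on normal salt. Its 2am range was 18.6 to 24.2 FPKM, which replicate 4 undershot. Ciart, a repressor of CLOCK and BMAL1, was 5.68 and 3.91 FPKM in replicates 1 and 2 and 0.103, 0.0711 and 0.315 in replicates 3 to 5, against 2.18 to 6.17 on normal salt. Tef followed Dbp, at 61.8 and 68.0 against 24.0, 14.2 and 21.6 FPKM.

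Not every clock gene of replicates 3 to 5 stood where the 2am libraries stand. Per2, a repressor of CLOCK and BMAL1, was 3.87, 2.66 and 3.59 FPKM there, below all other SS libraries: normal salt at 2pm ran from 9.94 to 18.5 and 2am from 16.7 to 25.9. Nr1d1, encoding REV-ERB alpha, which represses Arntl, was 31.5, 13.4 and 24.2 FPKM in replicates 3 to 5, far above its 2am range of 1.06 to 2.58. Replicate 3 lay within the normal-salt 2pm range of 30.0 to 44.5, and replicates 4 and 5 lay below it. Replicates 1 and 2 stood at 20.8 and 22.9 FPKM for Per2 and 33.0 and 30.2 for Nr1d1. The labels give all 5 libraries the hour 2pm, and whether they were taken at the same hour was not tested. Stc1, Havcr1 and other genes differed between the series too, and 17 of the 39 gene lists had medians of opposite sign in the 2 series. Whether these differences are linked to the split in clock genes was not tested.

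**Figure D3:**
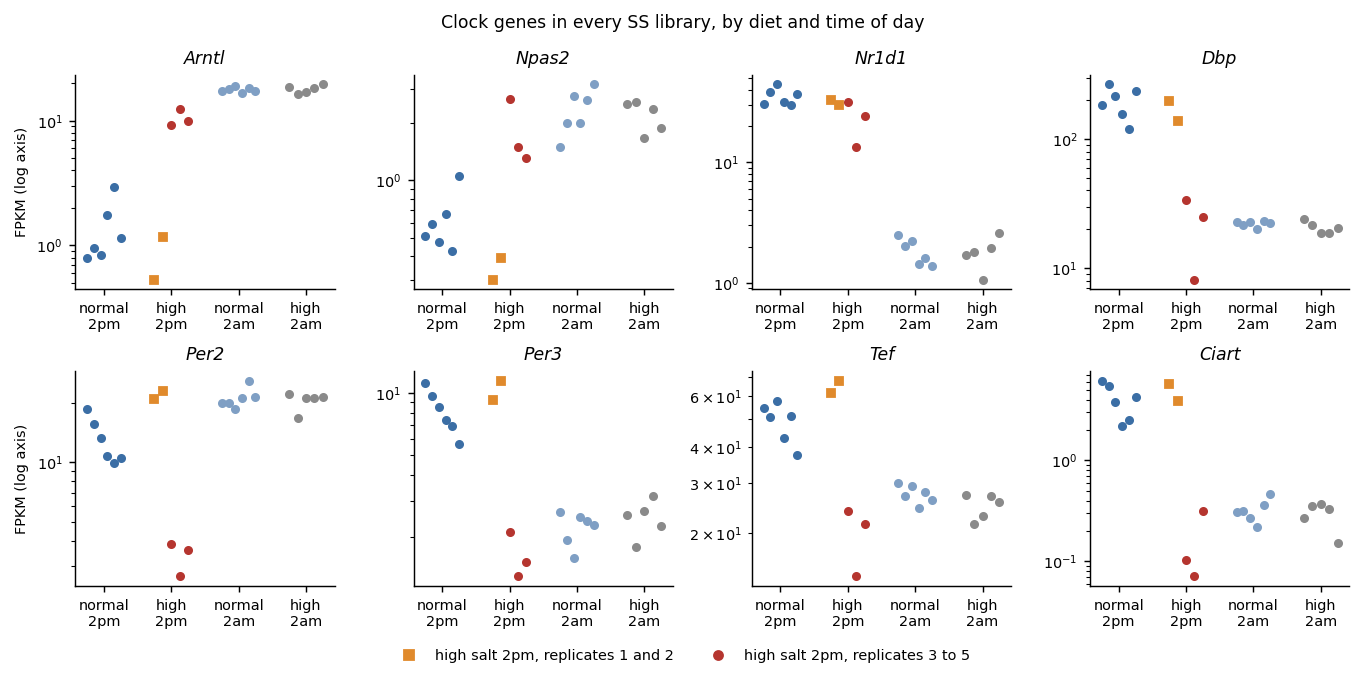
FPKM on a log axis for 8 clock genes in every SS library by diet and time, with high-salt 2pm replicates 1 and 2 as squares and 3 to 5 as red circles. Replicates 1 and 2 sit in or near the normal-salt 2pm range for most genes shown. They lie above it for Per2 (20.8 and 22.9 against 9.94 to 18.5) and Tef (61.8 and 68.0 against 37.5 to 57.8). Replicates 3 to 5 sit near the 2am libraries for Dbp, Tef and Ciart and below both times for Per2. For Nr1d1, replicate 3 sits in the normal-salt 2pm range, and replicates 4 and 5 lie below it but above 2am.

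The promoters of Ciart, Tef and Arntl are shown because their levels parted the 2 high-salt series in opposite directions. Capitals mark the E-box CACGTG in Ciart (chr2:186112197-186112496, minus strand) and Tef (chr7:115206577-115206876, plus strand), and the half-site AGGTCA, bound by the ROR and REV-ERB receptors, in Arntl (Bmal1 in RefSeq, chr1:176766078-176766377, plus strand), all in GRCr8 and 5′ to 3′.
Ciart: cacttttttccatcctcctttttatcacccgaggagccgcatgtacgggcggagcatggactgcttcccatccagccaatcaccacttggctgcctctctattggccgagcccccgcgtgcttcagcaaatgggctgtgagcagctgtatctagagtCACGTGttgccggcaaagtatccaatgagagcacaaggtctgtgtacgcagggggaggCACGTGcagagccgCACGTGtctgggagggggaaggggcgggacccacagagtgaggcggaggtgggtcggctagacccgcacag
Tef: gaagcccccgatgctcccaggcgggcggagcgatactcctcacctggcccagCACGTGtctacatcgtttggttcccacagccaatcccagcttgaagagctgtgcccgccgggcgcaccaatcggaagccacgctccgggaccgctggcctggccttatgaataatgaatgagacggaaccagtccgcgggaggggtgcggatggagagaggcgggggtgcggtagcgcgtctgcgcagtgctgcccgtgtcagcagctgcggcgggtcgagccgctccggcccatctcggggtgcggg
Arntl: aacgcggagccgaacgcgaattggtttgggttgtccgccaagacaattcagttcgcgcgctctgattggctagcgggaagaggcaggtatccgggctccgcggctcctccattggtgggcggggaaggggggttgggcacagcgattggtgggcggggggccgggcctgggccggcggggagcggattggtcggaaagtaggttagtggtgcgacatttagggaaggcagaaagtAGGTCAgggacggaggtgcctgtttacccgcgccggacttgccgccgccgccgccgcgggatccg
Ciart, low in replicates 3 to 5, holds 3 E-boxes, which begin 93, 35 and 21 bases before its start, and Tef holds 1, which begins 198 bases before. Arntl, high in replicates 3 to 5, holds no E-box in this window and 1 half-site that begins 15 bases before its start. Both strands were searched. Of 15 clock genes with a promoter, 5 hold an E-box, against 6.42% of all promoters, 2 hold the half-site, against 16.2%, and Per2 alone holds a D-box (TTANGTAA), against 2.24%. Motif and direction did not go together: Nr1d2 also holds the half-site but ran opposite to Arntl. It stood at 49.6 and 50.5 FPKM in replicates 1 and 2 and at 23.8, 16.7 and 17.9 in replicates 3 to 5. Of the E-box holders not shown, Bhlhe41 was lower in replicates 3 to 5, whereas Bhlhe40 and Nr1d1 overlapped between the series.

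**Figure D4:**
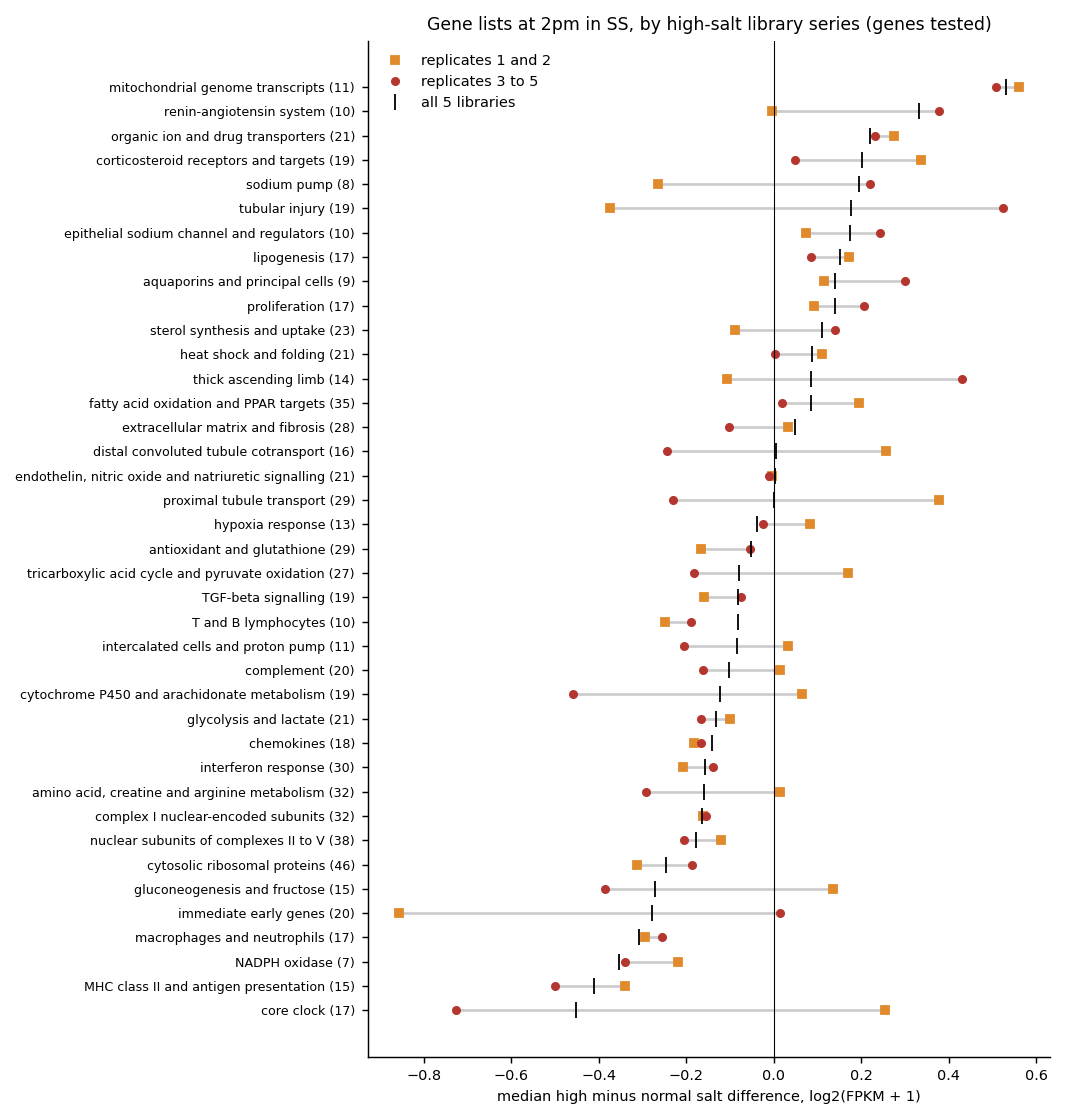
Median high minus normal salt difference, log2(FPKM + 1), of each gene list in SS at 2pm, for high-salt replicates 1 and 2 (squares), replicates 3 to 5 (circles) and all 5 libraries (ticks), with the number of genes tested in brackets. The lists of the core clock, tubular injury and proximal tubule transport lie on opposite sides of 0 in the 2 series, whereas mitochondrial transcripts (0.56 and 0.51) and MHC class II genes (-0.34 and -0.50) do not, both series being set against the same 6 normal-salt libraries.

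Other lists held few genes apart. Over all 39 lists, 750 genes were tested, of which 18 were apart above and 15 below, and 18 lists had no such gene. Both shares were below those of all genes tested, 4.1% above and 2.7% below. Hif1a, the oxygen-sensed factor, was the 1 of 13 hypoxia genes apart, at 34.7 to 45.9 against 21.4 to 32.5 FPKM (0.50, SE 0.11). Canx, a chaperone of the endoplasmic reticulum, was the 1 of 21 folding genes (0.43, SE 0.11), Ccnb1, a mitotic cyclin, the 1 of 17 proliferation genes (0.44, SE 0.13), and Cyp2d4 the 1 of 19 cytochrome P450 and arachidonate genes (0.39, SE 0.15). Of 46 cytosolic ribosomal protein genes, Rps2 (-0.71) and Rpl27 (-0.60) were below and Rps4x (0.47) above. None of 20 immediate early genes was apart, and their median was -0.86 in the earlier-numbered and 0.01 in the later-numbered series. Id3, an inhibitor of basic helix-loop-helix factors, had the largest difference below among genes with a symbol of 1 record: 56.4, 29.4, 28.0, 18.7 and 24.6 FPKM on high salt against 58.9, 85.7 and 111 (lowest, median, highest) on normal salt, or -1.50 (SE 0.25). High-salt replicate 1 came close to the normal-salt minimum, and Id3 overlapped under both scalings to equal totals and with the length trend removed.

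Some of the differences furthest below belong to records that share a symbol with another. The Rpl39 record that was apart held 1.10 ± 0.54 FPKM on high salt (n = 5) and 5.55 ± 1.09 on normal salt (n = 6), a difference of -1.66, while the abundant Rpl39 record held 353 ± 68.6 and 363 ± 92.1, a difference of -0.03. The low Tmsb10 record differed by -1.43 and its abundant record by -0.38, and the low Rps28 record by -1.17 and its abundant record by -0.58, and the abundant records of both overlapped between diets. The short Mtcp1 record (-1.16) and RT1-CE10 (-1.35), 1 of many near-identical MHC class I genes, are likewise uncertain.

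Other genes that the naming rule takes are given here by their values. Hipk3, a nuclear kinase, was above (12.9 to 20.2 against 4.15 to 11.6 FPKM, difference 0.97, SE 0.26), as was Myo9a, an unconventional myosin (8.32 to 12.1 against 2.59 to 7.15 FPKM, 0.88, SE 0.24). Asmtl (10.52 to 19.8 against 25.6 to 44.4 FPKM, -1.03, SE 0.19) and Emid1 (2.39 to 5.37 against 6.72 to 13.9 FPKM, -0.99, SE 0.21) were below. The diets overlapped for the rest, each the largest of a list with no member apart or a gene of the panel. Fxyd4, a pump regulator of the collecting duct, differed by 0.70 (SE 0.44) and Fn1, fibronectin, by 0.60 (SE 0.25). Dhcr7, of the last step of cholesterol synthesis, differed by 0.50 (SE 0.29) and Cyp4a2, an arachidonate hydroxylase, by 0.16 (SE 0.14). Rhbg, an ammonia transporter, differed by -0.56 (SE 0.25), Smad6, an inhibitor of BMP and TGF-beta signalling, by -0.59 (SE 0.18) and Slc16a3, a lactate transporter, by -0.54 (SE 0.23). Cyba, an NADPH oxidase subunit, differed by -0.93 (SE 0.47) and Prodh2, of hydroxyproline breakdown, by -1.25 (SE 0.70), and both were lowest in high-salt replicate 4 and, on normal salt, in replicate 5.

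Longer genes had more positive differences. Genes were cut by length into 5 classes. From the shortest to the longest class, with median lengths of 741 and 5016 bases, the median difference ran from -0.15 to 0.17, and Spearman's rho over the 12949 genes was 0.32 (genes of the same libraries, not independent). In the shortest class 1.47% of genes were apart above and 4.63% below, in the longest 8.76% and 1%. The slope had the same sign in SS at 2am (-0.06 to 0.06) and under the Per1KO label at 2pm (-0.12 to 0.14), comparisons that set the same 2 tables against each other. With each library's trend with length removed, 601 of the 881 genes were still apart. Of the 57 named genes that were apart, 12 then overlapped: Stc1, Id3, the low Tmsb10 record, Cul3, Atp1b1, Cd4, Bst2, Psmb9, Txnrd1, Ndufb6, Canx and Sppl3. Scaling to equal FPKM totals brought 16 into overlap, among them Stc1, Ccdc88a, Hnf4g, Prrg4, Id3, Atp6ap2, Atp1b1, Txnrd1, Cyp2d4, Canx, Hif1a, Ccnb1 and Klf3. Scaling to equal totals outside the mitochondrial genome brought in 9, which were Stc1, Ccdc88a, Id3, Cd4, Psmb9, Keap1, Cyp2d4, Ccnb1 and Sppl3. Angptl4, Pdk4, Pappa, Gsta2, Mt-atp8, Mt-nd5, Fxyd1, Npr2, C1qa, Ifi27, Irf3, Ndufa13 and Cox8a were apart under all 3.

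SS at 2am uses no library of SS at 2pm. There 464 genes were apart above (3.58%) and 342 below (2.64%). Of the 531 genes above at 2pm, 136 (25.6% of them and 29.3% of those at 2am) were above at both times, of the 350 below, 91 (26% and 26.6%), and 0 genes were apart in opposite directions. The sign was shared by 511 of the 531 and 327 of the 350, and across all genes tested Pearson's r was 0.52 and Spearman's rho 0.58, over genes that share tables at both times. Under the Per1KO label at 2pm 1461 genes were apart above (11.3%) and 1578 below (12.2%). There the sign was shared by 440 of the 531 and 256 of the 350, 1 and 5 genes were apart in the opposite direction, and Pearson's r was 0.32 and Spearman's rho 0.31. Of the genes apart in SS at 2pm, 44 above (8.29%) and 38 below (10.9%) were also apart in both other comparisons. Among the first were Mt-atp8, Hif1a, the kinase gene Rock1, the energy sensor gene Prkaa1, the chromatin remodeller gene Smarca5 and Rps4x, and among the second Cox8a, Ndufa13, Rpl27 and the low Mtcp1 record. Since all 3 set 1 table against the other, diet and table cannot be told apart in them either.

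**Figure D5:**
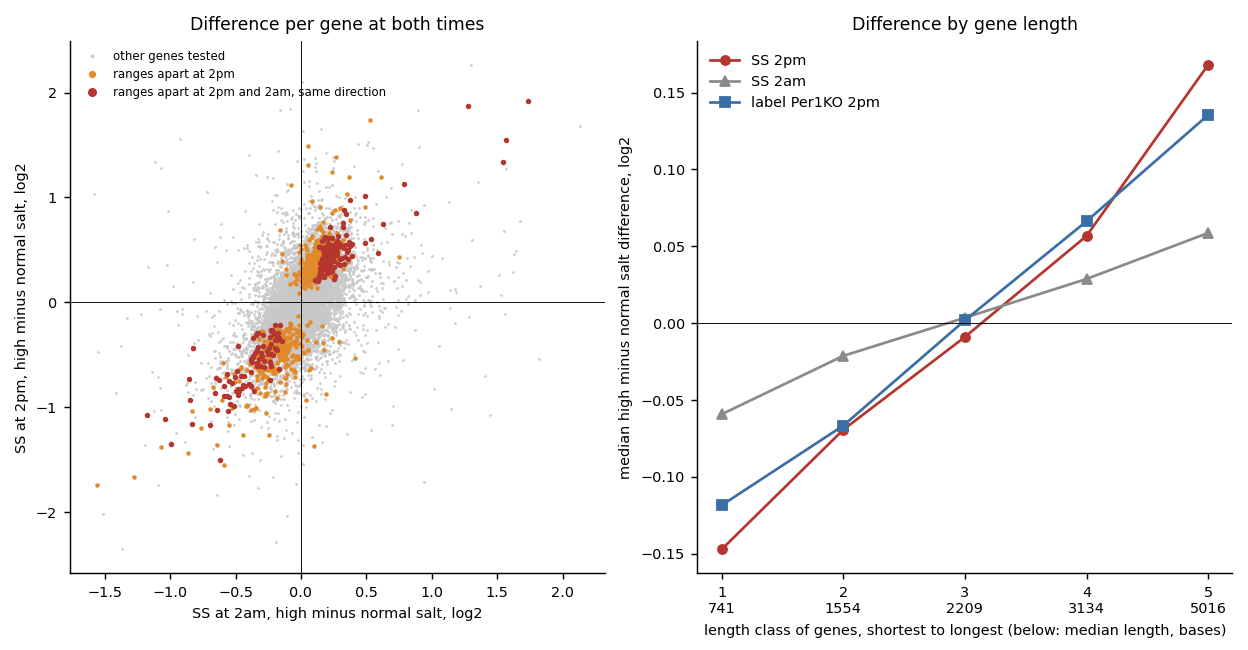
Left, the high minus normal salt difference of each gene in SS at 2pm against the same in SS at 2am, with genes apart at 2pm in orange and those apart in the same direction at both times in red. Right, the median difference in 5 classes of genes by length for 3 comparisons, with SS at 2pm running from -0.15 to 0.17.

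A difference between diets that depends on the time or on the genotype label can be tested, because a table effect common to both arms drops out. An effect tied to the library names does not: only the SS normal-salt libraries at 2pm have names in OK, and those of the other groups in these tests begin with AZ, so that name series and the difference of differences cannot be told apart. The fit used all 43 libraries (limma on log2(FPKM + 1), two-sided, Benjamini-Hochberg adjusted over 12949 genes). For the time of day 7 genes passed with a more positive difference at 2pm (0.0541%) and 3 with a more negative one (0.0232%), while 1843 had an unadjusted p below 0.05. Klf3, a transcriptional repressor, stood at 15.1, 15.2, 12.7, 14.4 and 14.6 FPKM at 2pm on high salt against 7.53, 9.81 and 11.04 (lowest, median, highest) on normal salt, and at 11.9 ± 0.66 and 11.9 ± 0.64 at 2am (n = 5 and 6). Its difference rose from -0.01 at 2am to 0.55 at 2pm, by 0.55 (SE 0.11, adjusted p 0.0188). Golph3, a Golgi coat adaptor, stood at 72.2 to 83.1 against 43.4 to 59.6 FPKM at 2pm, a difference of differences of 0.38 (SE 0.08, adjusted p 0.0371). Heca (0.51, adjusted p 0.0143), Col4a3bp, the ceramide transfer protein (0.48, 0.022), Sppl3 (0.39, 0.0363) and Ubl3 (0.30, 0.022) passed the same way, and 1 locus without a symbol. Ldb1, a LIM domain partner, passed the other way (-0.47, adjusted p 0.026): at 2pm it stood at 18.2 to 20.1 FPKM on high salt and 26.5 to 36.9 on normal salt. Dctpp1, a nucleotide pyrophosphatase (-0.63, 0.026), and Haus4, a spindle protein (-0.69, 0.0176), passed with it. The count was unstable: 87 genes passed without normal-salt replicate 5, 59 without high-salt replicate 1, 20 without high-salt replicate 3 and 17 without high-salt replicate 2. No gene passed in a limma fit of the 4 SS groups alone (1159 at an unadjusted p below 0.05), after scaling to equal FPKM totals (1524) or equal totals outside the mitochondrial genome (1594), or with voom on the recovered fragments (1742).

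By genotype label, 1568 genes had a diet difference that was more positive in SS than under Per1KO at 2pm (12.1%) and 1460 one that was more negative (11.3%). Of 32 complex I subunits 18 passed on the positive side, as did 18 of 38 subunits of complexes II to V and 18 of 27 genes of the tricarboxylic acid cycle, none of these lists having a gene on the negative side. Scaling moved these counts: with equal FPKM totals, which moved the median of all genes from 0.02 to -0.18, they were 7, 14 and 8, again with none on the negative side, and 11.5% of passing genes were positive, in place of 51.8%. The diet medians of these lists were -0.16, -0.18 and -0.08 in SS and -0.59, -0.62 and -0.55 under the label. On the negative side were 12 of 17 genes of macrophages and neutrophils, 17 of 28 of extracellular matrix, 10 of 19 of tubular injury, 10 of 30 of interferon response and 9 of 20 of complement, with none on the positive side. With high-salt replicates 3 to 5 alone the injury and macrophage counts were 5 and 7, and with replicates 1 and 2 alone 14 and 12. C1qb, for example, stood at 22.8 ± 2.84 on high salt and 29.0 ± 5.47 FPKM on normal salt in SS (n = 5 and 6), and at 47.3 ± 11.4 and 26.7 ± 6.47 under Per1KO, a difference of differences of -1.13 (SE 0.23, adjusted p 0.00101). Cd68 gave -0.87 (adjusted p 0.00182), Timp1, an inhibitor of matrix proteases, -1.23 (0.0172), Col3a1 -0.88 (0.0148) and Edn1 -0.80 (0.0093). Havcr1, Lcn2 and Spp1 did not pass (adjusted p 0.0723, 0.0806 and 0.164).

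Gene by gene, among the 6 largest positive values were those of Fam134b, a receptor for turnover of the endoplasmic reticulum (2.47, adjusted p 0.0245), Oosp1 (2.02, 0.0284), Kap, an androgen-regulated protein of proximal tubule (1.79, 0.00936), Gatm, which makes the precursor of creatine (1.79, 0.0251) and Esr1, an estrogen receptor (1.64, 0.000329). Among the 6 largest negative were those of Mir142 (-2.35, adjusted p 0.00281), Il24 (-2.08, 0.00277), Mir196c (-1.85, 0.0362), Cyp24a1, which degrades vitamin D (-1.82, 0.00777), and Gpnmb, a lysosomal glycoprotein (-1.62, 0.00292). Esr1 stood at 10.96, 12.5, 15.4, 22.1 and 16.1 FPKM in SS on high salt against 5.95 to 15.7 on normal salt, and at 5.80 ± 1.89 and 12.1 ± 2.20 under the label. Gpnmb was 8.67 ± 2.94 and 9.63 ± 1.56 FPKM in SS, and 31.7 ± 8.65 and 10.9 ± 2.51 under the label. The Mir142 and Mir196c records are short host-region records in a poly(A) library and do not measure the mature miRNAs.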

How the data were processed

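The authors deposited 1 table of FPKM per diet, 32545 genes on normal salt and 34899 on high salt. Per the submitters' processing notes, the tools included featureCounts 1.5.0-p3, HISAT2 2.0.5, StringTie 1.3.3b and fastp. For the genome build and the strand setting, the sources used here give nothing certain. The tables were joined on gene ID, and 0 columns lacked a sample. FPKM times gene length gave whole fragments for 100% of values within 0.01, from which depth was recovered.

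Genes with FPKM of at least 1 in at least 5 of the 11 libraries (12949) were kept as log2(FPKM + 1). Differences and SEs came from limma 3.58.1 in R 4.3.3, fitted to the 11 libraries. Diet by time and diet by genotype label were tested in 1 fit of 43 libraries with 8 group means (empirical Bayes with trend, two-sided, Benjamini-Hochberg over all genes, adjusted p below 0.05). The code was checked on simulated data. No 2 libraries of a group were copies: the smallest chi-square per degree of freedom between them was 19.8.

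Named genes were a fixed panel, the 12 largest differences each way among genes apart, up to 4 members per list, and the 6 largest each way in each test. Of the panel, Klk1 was not matched to a record and Nos1 did not pass the filter on low values. Some genes the rule takes are not reported here. The 39 lists, the comparison and the rule were chosen with earlier results of these data known. Alternatives were another pseudocount, other filters, median-ratio and equal-total scaling, each library or each high-salt series left out, a replicate block and a fit of 4 groups. Removal of the length trend, scaling outside the mitochondrial genome, leaving out high-salt replicate 4 with normal-salt replicate 5, and voom were added after seeing the data. Promoters are from RefSeq tables of GRCr8, and the files' own coordinates are not printed.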

Additional observations from a re-analysis of the deposited data

Results flagged for a closer look

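Each named gene reported, the depth and the mitochondrial share were checked in the libraries of each diet, 226 checks in all. In 22 the gap of the highest or lowest library to the next exceeded Dixon's 95% limit. Chance flags about 1 in 20 for independent, normally distributed values, but FPKM values are skewed and genes share libraries. Normal-salt replicate 5 accounted for 10: Agt (98.9 FPKM), Slc12a1 (280.4), Umod (2679), Slc22a13 (10.6), Tff3 (4917), Gadd45g (214), Kap (7513) and Mir196c (5.49) were highest there, and Mt-atp8 (92.9) and the low Rpl39 record (3.42) lowest. Normal-salt replicate 2 accounted for 4, all highest: Scnn1g (19.8), Ambp (8.56), Irf3 (108) and Sppl3 (21.8). Edn1 was highest (3.36) and Cyp2d4 lowest (9.23) in normal-salt replicate 6. On high salt, Mt-nd6 (4500.4), Heca (14.7) and Mir142 (2.23) were highest in replicate 4, Id3 (56.4) and Mir196c (2.39) in replicate 1, and Cyp2d4 (24.6) in replicate 2.

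Diet differences of 9 genes with a symbol differed between 2pm and 2am in SS by the test of that difference, on the log2 scale: Klf3 0.55, Heca 0.51, Col4a3bp 0.48, Sppl3 0.39, Golph3 0.38, Ubl3 0.30, Haus4 -0.69, Dctpp1 -0.63 and Ldb1 -0.47. Between SS and the label Per1KO at 2pm, the 6 largest each way included Fam134b 2.47, Oosp1 2.02, Kap 1.79, Gatm 1.79, Esr1 1.64, Mir142 -2.35, Il24 -2.08, Mir196c -1.85, Cyp24a1 -1.82 and Gpnmb -1.62.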

How the results depend on the processing

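Of 881 genes apart (531 above, 350 below), 797 were under equal FPKM totals (106 above, 691 below), 3902 with high-salt replicates 1 and 2 alone (2191 and 1711), 1668 with replicates 3 to 5 alone (945 and 723), and 1655 with high-salt replicate 4 and normal-salt replicate 5 left out (912 and 743). With 1 library left out the count was 912 to 1404 (551 to 793 above and 361 to 627 below). Fewer libraries are easier to hold apart, so higher counts there follow from the construction, and leaving out a library cannot bring a gene that is apart into overlap. Removing the length trend left 794 (429 and 365). Of the 57 named genes apart, 16 overlapped under equal FPKM totals, 12 with the length trend removed, 9 under equal totals outside the mitochondrial genome and 1 under median-ratio scaling. The time test passed 10 genes, 7 to 87 with 1 library left out, 136 with high-salt replicates 1 and 2 alone and 372 with replicates 3 to 5 alone. It passed 0 under equal FPKM totals, 0 under equal totals outside the mitochondrial genome, 0 in the fit of 4 groups (limma) and 0 with voom. The label test passed 3028 genes, 2401 to 3529 with 1 library left out and 1411 in the fit of 4 groups. The share of positive calls among them, 51.8%, was 11.5% under equal FPKM totals, 14.8% outside the mitochondrial genome and 13% with voom. The library size behind the deposited FPKM, divided by the recovered fragments, differed between groups at 2pm. In SS it was 0.894 to 0.985 on high salt and 0.912 to 1.074 on normal salt. Under the Per1KO label it was 1.036 to 1.174 and 0.927 to 1.068. Causes of these shifts, these ratios among them, were not tested. Same-numbered libraries of different groups had residual correlations from -0.45 to 0.66 (mean -0.01, 75 pairs), so the numbers do not pair them, and a replicate block passed 9 genes by time and 3037 by label. Genes near 1 FPKM rest on few fragments, and their log2 differences are understated.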

Other observations

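Genes of cohesin and of its loading and release were noticed among those above on high salt after their values were seen. Of 11 tested, 6 were apart above and none below. Nipbl, the loader, stood at 11.8, 13.2, 12.4, 13.4 and 11.3 FPKM on high salt and at 5.60 to 9.34 on normal salt, a difference of 0.62 (SE 0.13). Stag2, a cohesin subunit, stood at 19.9 to 27.5 against 10.7 to 17.1 FPKM (0.61), and Esco1, which acetylates cohesin, at 9.80 to 15.1 against 6.26 to 8.51 FPKM (0.63). Pds5a, Stag1 and Wapal were the others. The median of the 11 was 0.48 in SS at 2pm, 0.17 in SS at 2am and 0.18 under the Per1KO label at 2pm, and 8 of the 11 are among the 2590 longest genes tested, of which 8.76% were apart above.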
